A study of Arabidopsis thaliana with 6 samples.

Results

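The transcripts described here were present in closed buds and in open flowers of Arabidopsis thaliana at similar levels and were low in young siliques. They were chosen from their measured signals. A probe set was kept when the lowest of the 4 bud and flower arrays was at least 2.5 times the higher silique array and the bud and flower means differed by less than 2-fold, with signals under 25 set to 25. BPEp met these limits and was left out by name, as were MGH3, SWEET1, SWEET11 and SWEET14 wherever they would have met them. This left 39 of the 22746 probe sets that are not array controls. Because all 6 arrays entered the choice, the differences between stages are given as a description of these probe sets, with no test.

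Transcript levels had been measured on Affymetrix ATH1 arrays, on which each probe set is a group of short oligonucleotides for 1 transcript or a few similar ones. All plants were of the accession Landsberg erecta and 6 weeks old, grown at 21°C with 16 h of light. The 3 stages were complete closed buds shortly before pollination, complete open pollinated flowers, and siliques, the young fruits, 2 d after pollination and freed of the withering flower organs. Each stage had 2 arrays, every array from material pooled from 12 plants, and the whole experiment was carried out a second time to give replicate 2. No treatment or mutation separates the groups.

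Buds and flowers hold sepals, petals, stamens with pollen, and the pistil. A harvested silique is what the pistil becomes: valves, replum and developing seeds. The stages therefore differ in the organs harvested as well as in age, and whole-organ arrays do not separate the organs present from the expression within them. Fewer cells of a type and less RNA per cell cannot be told apart in such samples.

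Median deposited signals were 41.5 to 48.3, and a signal of 50 was reached by 10455 to 11192 probe sets on each array. On siliques 2 the added hybridisation controls were at 1.74 times the median array, while the other arrays lay between 0.883 and 1.07 times that array. The tapetum and pollen wall list summed to 3384 and 4770 in buds, to 314 and 335 in flowers, and to 316 and 311 in siliques. The sum does not describe every gene of that list: EMS1, a receptor kinase needed for tapetum formation, had 145 and 185 in buds, 219 and 184 in flowers, and 215 and 216 in siliques. BAN, which encodes the anthocyanidin reductase used for seed coat tannins, had signals of 0.850 and 0.617 in buds, 17.3 and 35.9 in flowers, and 665 and 658 in siliques. AGL62, an endosperm regulator, stayed between 4.45 and 12.2 on all arrays. AP3, PI and SEP genes had no probe set of their own in the gene table used. Probe sets without a listed gene, members included, may still measure them.

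The gene tables list 1 gene for 19 of the 39 probe sets, 2 genes for 2 others and none for 18. Only 5 of the 19 genes carry a symbol: SBT4.13, scpl48, ATL8, IQD19 and DI21. The other 14 are given by locus tag, without a role, because the gene tables used here hold none for them, and probe sets without a single listed gene are given by their array identifier. The share with no listed gene was 46.2% among the members and 38.4% on the whole array.

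The silique mean lay between 6.93% and 32.9% of the mean of buds and flowers, with a median of 21.7%. Expressed as a fold, the 39 transcripts were 3.04-fold to 14.4-fold lower in siliques, with a median of 4.62-fold. Over all 12075 probe sets that reached a signal of 50 on at least 2 arrays the median log2 difference between siliques and the mean of buds and flowers was −0.01, against −2.21 for the members. In 8 members both silique arrays were under 25, so their folds are lower bounds, and in 7 others 1 silique array was. In 24 members neither silique array was under 25, and in 7 of these both arrays were at 100 or above, so the transcript was still measured in the young fruit.

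All 39 passed the signal filter, which the choice itself requires. In the limma fit over all 12075 probe sets, 38 members were lower and 0 higher in siliques than in flowers at an adjusted p under 0.05, where 7.45% of all probe sets tested were called lower. The exception was AT1G24620. Of all probe sets, 7.23% were called higher. Against buds 39 were lower and 0 higher, beside 8.52% called lower and 7.03% called higher overall. Since the choice rests on these same arrays, nothing is read from these counts, and the comparisons share the silique arrays. Without flowers 1, flowers 2 or siliques 1, the members called against flowers numbered 20, 21 and 21.

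**Figure D1:**
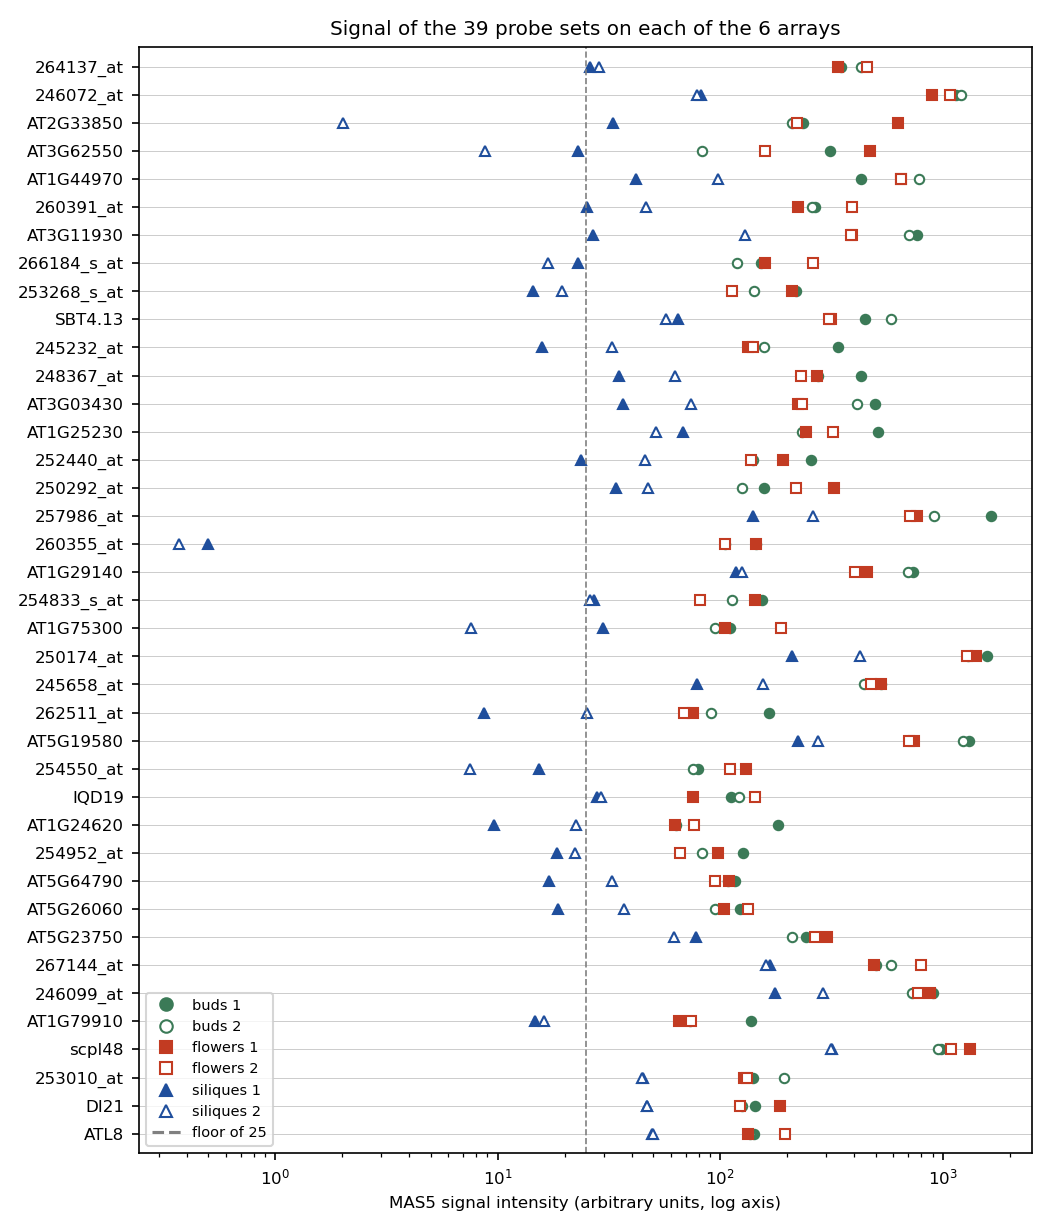
MAS5 signal intensity (log axis) of each of the 39 probe sets, in rows ordered by fold, on 2 bud arrays (circles), 2 flower arrays (squares) and 2 silique arrays (triangles), with filled symbols for replicate 1 and open symbols for replicate 2. The silique triangles lie to the left of all 4 bud and flower symbols in every row, as the choice requires, and 8 rows have both triangles under the dashed floor of 25.

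The 2 largest folds belonged to probe sets whose silique replicates lay close together. Probe set 264137_at had signals of 347 and 427 in buds, 337 and 458 in flowers, and 25.9 and 28.4 in siliques, which is 14.4-fold lower in siliques. Probe set 246072_at had 1145 and 1211 in buds, 893 and 1077 in flowers, and 81.6 and 78.5 in siliques, 13.5-fold lower. Neither has a gene listed in the tables used here. Bud and flower arrays overlapped for 264137_at, buds lay above flowers for 246072_at, and the silique arrays were far below them in both.

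AT2G33850 was 11.2-fold lower in siliques, with 235 and 211 in buds, 627 and 220 in flowers, and 32.9 and 2.01 in siliques. Flowers 1 stood well above the other bud and flower arrays, so its flower level is poorly fixed. AT3G62550 had 312 and 83.1 in buds, 473 and 159 in flowers, and 23.1 and 8.76 in siliques, at least 10.3-fold lower. Its replicate 1 signal exceeded that of replicate 2 at every stage, by 3.75 times in buds and 2.99 times in flowers, and siliques stayed below both. AT1G44970 had 431 and 780.0 in buds, 647 and 648 in flowers, and 41.8 and 98.1 in siliques, 8.95-fold lower. Its fold rests on the silique arrays, at 15 without siliques 2 and 6.38 without siliques 1. It was the fifth and last member past 8-fold with all arrays, and 4 to 9 members were past 8-fold without 1 array, the 9 without siliques 2.

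Probe set 260355_at came closest to absence in siliques, with signals of 105 and 145 in buds, 144 and 105 in flowers, and 0.50 and 0.37 in siliques. Against the floor this is at least 4.99-fold lower. The fold is small because the floor, and not the silique signal, sets it. The other 7 members with both silique arrays under the floor were 266184_s_at, 253268_s_at, AT3G62550, 254550_at, AT1G24620, 254952_at and AT1G79910, whose silique signals ran from 7.55 to 23.1.

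Among the genes with a symbol, 2 encode serine-type peptidases of different families. SBT4.13 (AT5G59120) is a subtilase, one of the secreted subtilisin-like proteases that cut proteins in the cell wall space. Its signals were 447 and 583 in buds, 313 and 307 in flowers, and 64.9 and 56.9 in siliques, 6.77-fold lower in siliques. Bud and flower arrays did not overlap, with buds higher. scpl48 (AT3G45010) is a serine carboxypeptidase-like protein, of a family that includes both carboxypeptidases and acyltransferases. It had 984 and 956 in buds, 1326 and 1085 in flowers, and 318 and 316 in siliques, 3.43-fold lower. Flowers lay above buds here, and the silique level was reproducible and far from background.

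Their families, grouped after the values were seen by the stem of the symbol, did not share this pattern as a whole. Probe sets were found for 7 SBT genes, of which 4 passed the signal filter. SBT4.13 had a log2 difference between siliques and the mean of buds and flowers of −2.76. For SBT5.4 and SBT3.12 it was −1.05 and −0.49, and for SBT1.3 it was 0.63. SBT1.3 thus had its highest signals in siliques, with 782 and 1009 in buds, 839 and 876 in flowers, and 1380 and 1340 in siliques. SBT4.12, with a neighbouring number, stayed between 3.55 and 8.48 on all arrays and did not pass the filter.

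Of 29 SCPL genes with a probe set, 18 passed the filter. The log2 difference of scpl48 was −1.78, and those of the 17 others ran from −1.28 to 2.34. At the low end SCPL49 had 1101 and 1461 in buds, 385 and 435 in flowers, and 365 and 334 in siliques. Its flower signals lay far below those of buds and close to those of siliques, whereas the flower signals of scpl48 lay above those of buds. At the high end scpl20 had 66.2 and 54.7 in buds, 79.5 and 82.0 in flowers, and 391 and 323 in siliques.

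**Figure D2:**
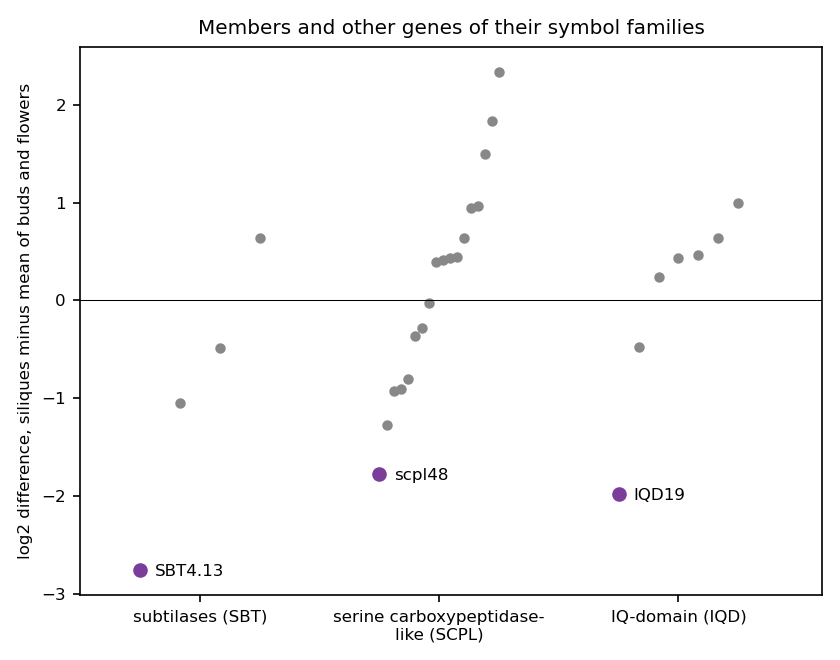
Log2 difference between siliques and the mean of buds and flowers (signals floored at 25) for the genes of the SBT, SCPL and IQD symbol families that passed the signal filter, each point a gene. Purple points are SBT4.13 at −2.76, scpl48 at −1.78 and IQD19 at −1.98, each the lowest of its family, and grey points are the other 3, 17 and 6 genes.

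IQD19 (AT4G14750) belongs to the IQ-domain proteins, which bind calmodulin and in several cases associate with microtubules. Its signals were 112 and 122 in buds, 75.7 and 143 in flowers, and 28.1 and 29.2 in siliques, 3.95-fold lower. The flower arrays enclosed the bud arrays. Among 7 IQD genes that passed the filter its log2 difference was −1.98, and the others ran from −0.48 for IQD26 to 1.00 for IQD28. IQD28 had 70.5 and 65.8 in buds, 86.8 and 78.8 in flowers, and 165 and 136 in siliques.

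ATL8 (AT1G76410) is of the ATL family of membrane-anchored RING-type ubiquitin ligases, which mark proteins for breakdown. It had 142 and 136 in buds, 134 and 195 in flowers, and 49.8 ± 0.3 (SD, n = 2) in siliques, 3.04-fold lower and the smallest fold of the group. No other ATL gene with a probe set passed the filter, 3 being below it. DI21 (AT4G15910) is named for its induction by drought. It had 143 and 125 in buds, 186 and 122 in flowers, and 46.9 and 46.7 in siliques, 3.07-fold lower. For both genes the silique replicates differed by less than 1 signal unit and the flower replicates lay further apart than those of the other stages.

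The locus-tagged genes spread over the same range of folds. AT3G11930 had 762 and 703 in buds, 392 and 388 in flowers, and 26.8 and 129 in siliques, 7.19-fold lower. Its silique arrays were far apart, and the fold was 20.9 without siliques 2 and 4.34 without siliques 1. AT3G03430 had 496 and 410.5 in buds, 224 and 233 in flowers, and 36.4 and 74.3 in siliques, 6.17-fold lower, or 9.37-fold without siliques 2. AT1G25230 had 512 and 233 in buds, 244 and 321 in flowers, and 67.8 and 51.6 in siliques, 5.49-fold lower. The first pair had clearly higher buds than flowers, while the bud and flower arrays of AT1G25230 overlapped.

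AT1G29140 had 731 and 696 in buds, 456 and 401 in flowers, and 117 and 125 in siliques, 4.71-fold lower. AT5G19580 had 1312 and 1232 in buds, 739 and 702 in flowers, and 225 and 275 in siliques, 3.99-fold lower. In both, each stage was separate from the next, with buds highest, flowers between and siliques lowest. These were also the 2 members called lower in flowers than in buds, beside 6.13% of all probe sets, and 0 were called higher, beside 4.53%; the number was 4 without either silique array, 1 without buds 1 and 0 without buds 2, flowers 1 or flowers 2.

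AT5G23750 leaned slightly towards flowers, with 243 and 209.9 in buds, 303 and 266 in flowers, and 78.1 and 61.7 in siliques, 3.65-fold lower. AT1G75300 had 110.3 and 94.4 in buds, 105 and 188 in flowers, and 29.7 and 7.60 in siliques, 4.55-fold lower. The remaining genes AT5G64790, AT5G26060, AT1G79910 and AT1G24620 were of moderate signal and ran from 62.8 to 181 in buds and flowers and from 9.65 to 36.9 in siliques, with folds of 3.50 to 3.83. For AT1G79910 and AT1G24620 these folds are lower bounds.

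Within the 2-fold limit the ratio of the bud mean to the flower mean varied between members. The flower mean was above the bud mean in 17 members and below it in 22, and the median log2 difference between flowers and buds was −0.10, against −0.02 over all probe sets that passed the filter. The means lay within 1.2-fold of each other in 16 members. In 10 members the bud mean exceeded the flower mean by over 1.5 times, and in 5 the flower mean exceeded the bud mean by as much. Bud and flower arrays overlapped in 23 members, both flower arrays were below both bud arrays in 11, and both were above in 5. The same counts were not made over all probe sets, and the choice limits this ratio. Nothing is therefore read from how many members overlapped. When each array was scaled to a common median, which moved the median of all probe sets by 0.11 for flowers against buds, the members' median became 0.02 with 20 of 39 higher in flowers. In replicate 1 alone it was −0.13 with 10 of 39 higher in flowers, and in replicate 2 alone −0.02.

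The bud-leaning end held AT3G03430, with a flower mean of 229 ± 6 and a bud mean of 453 ± 61 (SD, n = 2 each), AT3G11930, 245232_at, AT5G19580, AT1G24620, 262511_at, 257986_at, AT1G29140, SBT4.13 and AT1G79910. At the flower-leaning end were 250292_at, with a flower mean of 271 ± 75 and a bud mean of 141 ± 23 (SD, n = 2 each), AT2G33850, AT3G62550, 254550_at and 266184_s_at. The most even balance was that of 260355_at, at 124 ± 28 in flowers and 125 ± 28 in buds. Probe set 250174_at was likewise even at a high signal, with 1582 and 1299 in buds, 1413 and 1284 in flowers, and 210.0 and 425 in siliques, 4.39-fold lower, or 6.64-fold without siliques 2. With AT1G44970, AT3G11930 and AT3G03430 it made up the 4 members whose fold moved by over 1.5 times without 1 array.

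**Figure D3:**
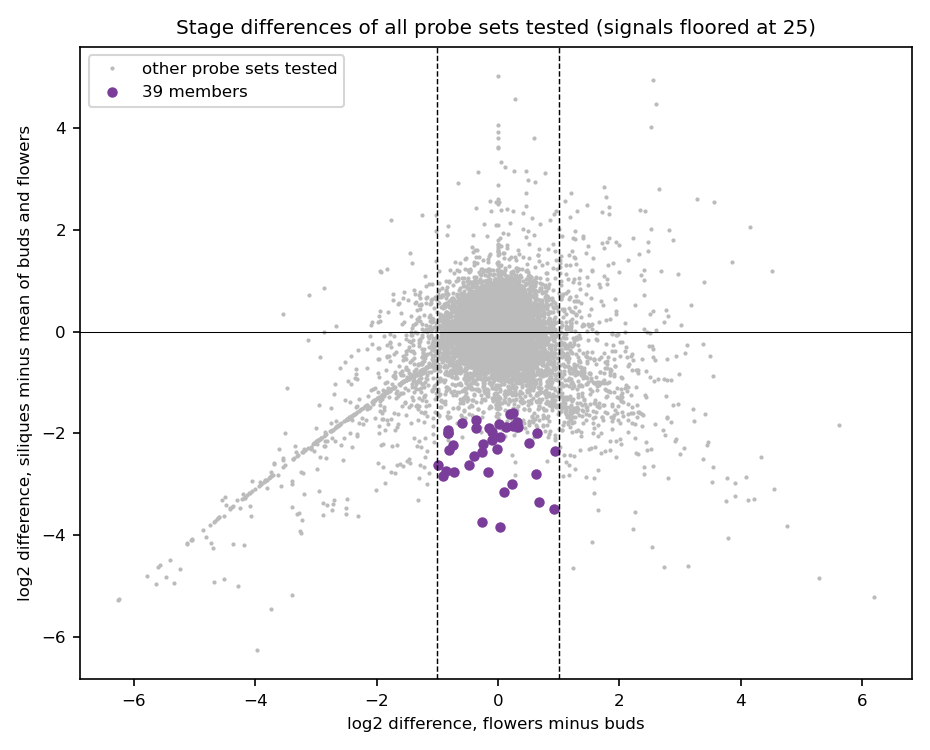
Log2 difference between flowers and buds (horizontal) and between siliques and the mean of buds and flowers (vertical) for the 39 members (purple) and the other probe sets tested (grey), with signals floored at 25. The members fill the band between the dashed 2-fold lines from −1.61 down to −3.85, and the 15 and 19 further probe sets that met the silique limit lie to the right and left of that band.

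Few transcripts sat in this corner of the data. The silique limit alone was met by 74 probe sets. Besides the 39 members and BPEp, 15 of these had a flower mean at least 2 times the bud mean and 19 a bud mean at least 2 times the flower mean. With the same limits turned to the other stages, 33 probe sets were high in flowers and siliques and low in buds, and 6 were high in buds and siliques and low in flowers. The count of members itself depends on the limits. It was 61 with a floor of 10, 23 with a floor of 50, 82 with a 2-fold limit over siliques and 10 with a 4-fold limit. Without buds 2 it was 107, without siliques 2 it was 109 and without flowers 2 it was 59, and of the 39 those still included numbered 34, 39 and 35. Without buds 1 it was 41, without flowers 1 it was 45 and without siliques 1 it was 48. Leaving out any array can only loosen the silique limit, so the rule itself favours a higher count. Replicate 2 arrays moved the count more than replicate 1 arrays did, and the cause was not tested.

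Just inside the 2.5-fold limit lay AT1G24620, 246099_at, AT5G19580, AT5G26060 and IQD19, with ratios of the lowest bud or flower array to the higher silique array of 2.51 to 2.59. Just outside were 247736_at, 266750_s_at, 248566_s_at, 253182_at and AT2G45040, with ratios of 2.46 to 2.33. AT2G45040 had 95.2 and 63.0 in buds, 98.1 and 62.2 in flowers, and 25.2 and 26.7 in siliques. At the 2-fold limit AT3G03430 was just inside, its bud mean 1.98 times its flower mean. AT1G28710 was just outside with a flower mean 2.11 times its bud mean, and OCT1, an organic cation and carnitine transporter, with a bud mean 2.21 times its flower mean. OCT1 had 436 and 287 in buds, 171 and 157 in flowers, and 40.5 and 36.4 in siliques.

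The replicates of the members were spread more widely than those of all probe sets at every stage when signals were taken as deposited. The median size of the log2 ratio of replicate 1 to replicate 2 was then 0.31 in buds, 0.27 in flowers and 0.48 in siliques for the members. For all probe sets that passed the filter it was 0.25, 0.19 and 0.22. With signals floored at 25, which sets 8 members to equal silique replicates, the silique value was 0.19 for the members and 0.20 for all. Low silique signals, where a ratio is poorly fixed, were part of the choice, so nothing is read from the silique spread. Buds 1 was above buds 2 in 31 of the 39 members (79.5%), against 47.4% of all probe sets that passed. In siliques as deposited, replicate 2 was above replicate 1 in 24 of the 39 (61.5%), against 47.7% of all, and with floored signals in 20, with 8 equal.

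The pollen list differed between replicates in the same directions in buds and siliques, but not in flowers. In flowers 6 of its 11 genes were higher in replicate 2 and 5 in replicate 1, against 16 and 23 of the 39 members. This list holds genes of mature pollen and the pollen tube, of which 11 of 56 had a probe set of their own. Their summed signal was 848 and 495 in buds, 533 and 572 in flowers, and 123 and 247 in siliques. Buds 1 exceeded buds 2 for 9 of the 11 genes and siliques 2 exceeded siliques 1 for 10 of the 11, although 8 of the 11 were under 25 on both silique arrays. The lowest signal was that of AGL66, a pollen MADS-box gene, at 2.36 on siliques 1, which is under the floor of 25. In the tapetum list the direction in buds was the opposite, with buds 2 higher for all 7 genes with a probe set.

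The same array pattern, with buds 1 over 1.5 times buds 2 and siliques 2 over 1.5 times siliques 1, was looked for after the values were seen. With signals floored at 25 it was shown by 248367_at, 252440_at and 257986_at, 3 of the 39 members, and by 2 of the 11 pollen genes. As deposited it was shown by 245232_at, 262511_at and AT1G24620 as well and by 6 of the pollen genes, but those 3 members had silique signals under or close to 25, where a ratio is poorly fixed, and 4 of the 6 pollen genes were under 25 on both silique arrays. The pattern was shown by 7.69% of the members with floored signals and by 15.4% as deposited. Over all probe sets that passed the filter these shares were 2.05% and 2.75%. Members were chosen for low silique signals, so nothing is read from their share. Probe set 257986_at had 1653 and 910.4 in buds, 765 and 709 in flowers, and 141 and 261 in siliques. AT1G24620 had 181 and 63.3 in buds, 62.8 and 75.9 in flowers, and 9.65 and 22.4 in siliques. The part of pollen content in the members' differences was not tested. Among members without this array pattern on either basis were SBT4.13, scpl48, 264137_at and 246072_at, whose silique arrays lay close to each other.

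**Figure D4:**
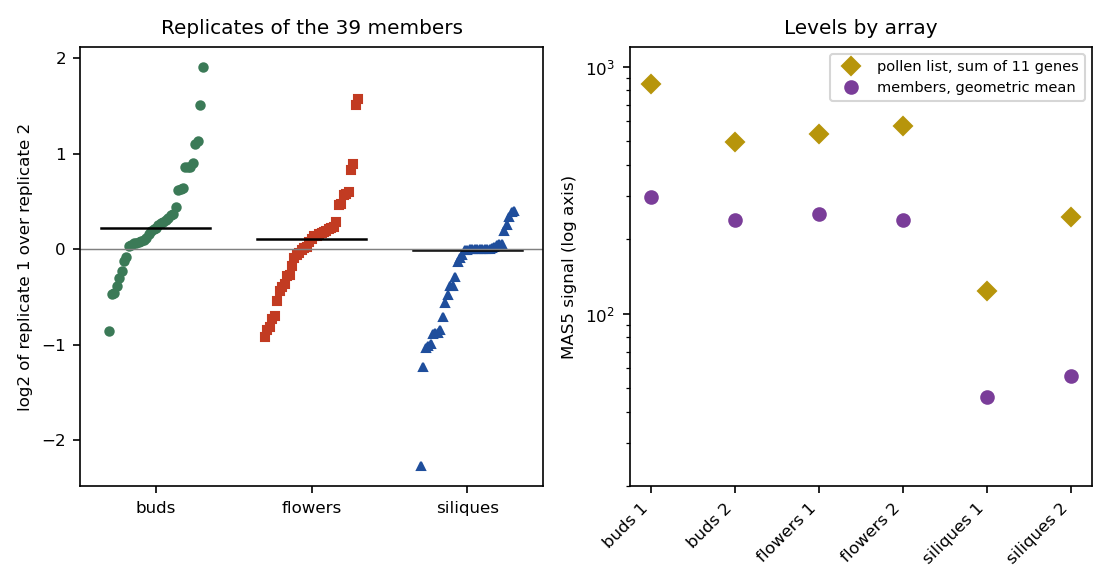
Left, log2 ratio of replicate 1 to replicate 2 for the 39 members in each stage (signals floored at 25, each point a probe set, black bars medians); most bud ratios are above 0, with 31 of 39 higher in buds 1. Right, summed signal of the 11 pollen genes (diamonds) and geometric mean of the members (circles) on each array (log axis). Both were higher in buds 1 than in buds 2 and higher in siliques 2 than in siliques 1. In flowers the pollen sum was higher in replicate 2 and the mean of the members in replicate 1.

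Lists of floral genes, chosen with earlier results of these data known, gave the setting of the group. None of the 9 lists held a member. Nothing is read from this, since members were 39 of 22746 probe sets and most listed genes had no probe set of their own. BPEp, of the petal and stamen list, met the limits and was left out by name. In the pollen list 3 of 6 genes that passed the filter were called lower and 0 higher in siliques than in flowers, and 4 lower and 0 higher than in buds, with medians of −1.36 and −2.03 on the log2 scale (0.02 and 0.00 over all probe sets tested). The 3 calls against flowers, MGH3, ANX2 and AT4G39110 (entered as BUPS1), were each lost without flowers 1, flowers 2 or siliques 1, and ANX2 also without siliques 2. Without 1 array the calls over all lists ranged from 7, without flowers 2 or without siliques 1, to 12 for siliques against flowers, 11 being called with all arrays. Of all probe sets tested, 7.45% were called lower in siliques than in flowers and 8.52% lower than in buds. For flowers against buds 6.13% were called lower. The tapetum list had a probe set for 7 of its 35 genes, and 6 passed the filter. Of these, 0 were called against flowers and 5 were lower than in buds, the call for flowers against buds being 5 lower and 0 higher. The 5 were thus low from flower opening on. High flower signals were required of the members by their choice, so no contrast with these 5 is drawn.

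The nectary and floral scent list had a probe set for 3 of its 7 genes. Of the 3, SWEET9 and TPS24 were called higher in flowers than in buds and lower in siliques than in flowers. Among all probe sets tested these calls were made for 4.53% and 7.45%. SWEET9, the sucrose exporter of nectaries, had 47.0 and 9.26 in buds, 1272 and 1539 in flowers, and 12.7 and 16.7 in siliques. The third gene, BSMT1, a methyltransferase that makes the scent compound methyl salicylate, ran otherwise, with 277 and 449 in buds, 55.4 and 92.7 in flowers, and 8.93 and 101 in siliques. BPEp, which limits petal cell growth and shared the limits of the group, had 88.4 and 127 in buds, 99.6 and 78.5 in flowers, and 12.1 and 5.13 in siliques. It was the only gene of the petal and stamen list past the filter. Its levels in buds and flowers overlapped.

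The chromosomal neighbours of the members are given as a description. For 17 of the 19 genes the gene directly before or after had a probe set of its own, 19 probe sets in all, of which 13 passed the filter and 0 were members. Members were 39 of 22746 probe sets, so 0 among the neighbours says little. VPS24.2, AT3G11920 and AT5G26070 were under 25 on all arrays and could not show a decrease. The share of all probe sets at least 2-fold lower in siliques was not counted, so nothing is read from the number of neighbours. Of the 19, 2 were at least 2-fold lower in siliques than in the mean of buds and flowers. AT1G75290, next to AT1G75300, had 43.0 and 29.6 in buds, 106 and 160 in flowers, and 12.7 and 7.92 in siliques. It thus had the low silique level of its neighbour but a flower mean 3.66 times its bud mean. AT1G25240, next to AT1G25230, had 158 and 47.9 in buds, 229 and 242 in flowers, and 30.1 and 82.3 in siliques.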

How the data were processed

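The authors deposited an intensity for each probe set and array, a linear MAS5 signal; MAS5 is named in the submitters' processing notes, and its version, settings and detection calls are not given in the sources used here. Every array has a 2% trimmed mean of 100.0 or 100.01, so the deposited intensities share a scale, and the number of arrays limits the precision. All 64 control probe sets were left out. Genes came from the platform annotation and the RefSeq gene table of TAIR10.1, used for names and gene order only. No sequences or gene products were at hand, so the planned promoter, protein and product-class descriptions could not be made.

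For the counts of calls, signals plus 10 were log2 transformed and fitted in limma 3.58.1 (R 4.3.3; lmFit, eBayes with trend) on all 6 arrays in 3 groups, for the 12075 probe sets with a signal of 50 on at least 2 arrays. Benjamini-Hochberg adjustment was applied to the two-sided p of each comparison. In simulations of siliques against flowers with 12075 probe sets, the fit found 98.2% of 4-fold and 60.6% of 2-fold changes, with 7.12% false among its calls. The simulated noise was normal and independent between arrays, unlike the correlated replicates of the real data, so these rates hold for that setting only. The replicate number marks the repeat of the whole experiment. Replicate differences correlated at 0.34 for flowers and buds, −0.01 for siliques and buds, and 0.17 for siliques and flowers; replicate was added as a block in an alternative. Folds use signals floored at 25, so they understate changes of low transcripts.

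The members and gene lists were chosen with earlier results of these data known. Genes were named by rule: members with a symbol, those ranked highest by the ratio that defines the group and those next to its limits; families, neighbours and other named genes were added after their values were seen.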

Additional observations from a re-analysis of the deposited data

How the results depend on the processing

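The direction of the members in siliques is fixed by their choice, so no alternative tests it. Median centring moved the median of all probe sets by 0.16 on the log2 scale for siliques against buds and flowers, and the smallest member fold became 2.75. The number of probe sets meeting the limits was 61 with a floor of 10, 23 with a floor of 50, 82 at 2-fold, 10 at 4-fold, 24 with buds and flowers within 1.5-fold, and 41 to 109 without 1 array. With a floor of 10, under both normalizations and without each array in turn, 22 of the 39 were always included. That number is no measure of stability, since a lower floor or the loss of any array can only loosen the silique limit. The floor of 10 and the loss of either silique array each kept all 39. Tighter limits were not part of it, and of the 39 a floor of 50 kept 23 and the 4-fold limit 10. The median log2 difference between flowers and buds was 0.0157 with median centring, −0.131 in replicate 1 alone and −0.0171 in replicate 2 alone. Probe sets called for siliques against flowers numbered 1162 without the signal filter, against 1773 with it, while those for siliques against buds numbered 1957 against 1878 and those for flowers against buds 1353 against 1287; the cause was not tested. Without 1 array those for siliques against flowers numbered 251 to 2036, with 7 to 12 list genes. The ranges were 871 to 1808 for siliques against buds and 580 to 1115 for flowers against buds. A fit without 1 array assumes that the lone array varies like the other groups. With replicate as a block, which the repeat of the experiment allows, the counts were 2190, 2427 and 1490, and no count here moved by over 1.5 times. With 2 arrays per stage no sample could be judged an outlier. The array pattern shared with pollen genes, with signals floored at 25 as an alternative chosen after seeing the data, was shown by 3 members, against 6 as deposited. Over all probe sets that passed the filter its share was 2.05% with floored signals and 2.75% as deposited.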
